A study of Rattus norvegicus with 40 samples.

Results

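The comparison described here is the colony difference in kidney libraries of Dahl SS rats on LS chow at 10 weeks of age. It comprises all rows of the deposited table that sets MCW against CRL, which are 38227 regions measured over 8 of the 40 libraries of the series. One group came from rats labelled Dahl SS/JrHsdMcwi (SS/MCW) and the other from rats labelled Dahl SS/JrHsdMcwiCrl (SS/CRL), called MCW and CRL below. Both ate chow labelled LS, both were 10 weeks old, and each was made up of 4 pools of 3 rats, with cells labelled as kidney T-cells. Rats on HS chow, which had it for 3 weeks and were also 10 weeks old, and blood libraries of both colonies served for comparison. The labels give no isolation step, sort or gate, and they name no allele or agent beyond strain and chow. Colony, breeding place and earlier diet cannot be told apart, since each colony stands for all of them. The table holds the authors' mean level of each group and no value per pool, so that neither a spread over pools nor a read depth stands beside any level, and p-values cannot speak of rats beyond these pools.

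The Dahl SS rat is an inbred model of salt-sensitive hypertension, in which dietary salt raises blood pressure and T cells that enter the kidney take part in its damage. As background on the colonies, the MCW colony is known to be kept on a purified casein-based diet, and the CRL colony, derived from it, by a commercial breeder on a grain-based diet. The labels say nothing of this. Cytosine methylation at CpG sites is usually dense over gene bodies and between genes and sparse at CpG-rich promoters. Cell types differ in it at enhancers, at gene bodies and at the promoters of lineage genes. Reduced representation bisulfite sequencing cuts DNA with an enzyme at CCGG, which draws the measured regions towards CpG-rich DNA, and reads the unconverted cytosines as methylated.

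The promoters of Gnas, Syk and Acbd4 are shown because regions that the table annotates to the TSS (transcription start) class of these genes differed between colonies on both chows. Each runs from 250 bases before to 50 bases after the start that RefSeq gives on assembly GRCr8, with every CpG in capitals. The measured regions lie on rn5 and were not mapped onto these windows, and a gene such as Gnas has several starts. Gnas encodes the stimulatory G protein alpha subunit within an imprinted locus, Syk a tyrosine kinase of immune receptor signalling, and Acbd4 an acyl-CoA binding protein. The Gnas window is chr3:183489398-183489697 on the plus strand, the Syk window chr17:12813224-12813523 on the minus strand, and the Acbd4 window chr10:88549358-88549657 on the plus strand.
Gnas: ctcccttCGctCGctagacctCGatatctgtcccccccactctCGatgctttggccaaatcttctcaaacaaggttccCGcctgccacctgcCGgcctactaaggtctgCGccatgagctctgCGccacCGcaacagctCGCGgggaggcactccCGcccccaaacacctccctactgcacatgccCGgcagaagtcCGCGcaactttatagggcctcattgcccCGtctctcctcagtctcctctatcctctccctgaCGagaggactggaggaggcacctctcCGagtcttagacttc
Syk: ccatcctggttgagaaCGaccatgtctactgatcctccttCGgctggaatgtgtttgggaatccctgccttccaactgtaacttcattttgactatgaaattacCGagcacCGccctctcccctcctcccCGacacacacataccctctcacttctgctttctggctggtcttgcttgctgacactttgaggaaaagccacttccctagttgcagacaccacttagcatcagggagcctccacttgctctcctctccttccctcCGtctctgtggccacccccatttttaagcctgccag
Acbd4: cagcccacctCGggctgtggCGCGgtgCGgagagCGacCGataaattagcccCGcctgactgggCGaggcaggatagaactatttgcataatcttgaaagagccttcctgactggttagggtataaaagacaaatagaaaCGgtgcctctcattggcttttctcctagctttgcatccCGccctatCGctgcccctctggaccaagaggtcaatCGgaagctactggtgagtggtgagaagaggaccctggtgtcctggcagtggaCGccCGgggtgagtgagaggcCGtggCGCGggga
The Gnas window held 18 CpGs and 2 CCGG sites, the Acbd4 window 17 and 1, and the Syk window 6 and 0. The letters CCGG, which read the same on both strands, were present in 53.0% of all 27457 RefSeq promoters of this length. Those promoters held a median of 7 CpGs. Genes with a TSS region in the table had a median of 23 CpGs over 5994 matched promoters, the 43 with a TSS region called higher in CRL 15, and the 18 with one called lower 18.

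The label of T cells was set against marker genes, of which Cd3e, Cd3d, Cd3g, Cd4, Cd5, Lck and Trat1 had no region. Levels at the others were mixed, some higher and some lower in kidney than in blood, and the libraries are called kidney libraries here. Lcp2, the SLP-76 adaptor of T cell receptor signalling, had 49.1% in MCW and 72.6% in CRL kidney, and 9.00% and 12.5% in blood of rats of the same groups. Cd2, a T cell adhesion receptor gene, had 19.2% and 9.05% against 0.321% and 1.83%, and the TSS region of Ubash3a, a regulator of T cell receptor signalling, 13.7% and 21.0% against 0.106% and 3.34%. In the other direction, Fyn, a T cell receptor kinase gene, had 16.6% and 15.0% in kidney against 98.3% and 96.5% in blood, Skap1, an adaptor gene, 15.7% and 4.56% against 77.5% in both, and Bcl11b, a T lineage transcription factor gene, 75.6% and 77.9% against 96.3% and 98.9%. Among the tubule genes, Hnf4a had 13.7% and 12.6% in kidney against 70.4% and 67.4% in blood, and Slc34a1, the proximal tubule phosphate transporter gene, 13.9% and 8.66% against 85.6% and 88.2%.
Of 11 T cell list regions that overlapped one in blood, 4 were at least 10 points higher in kidney and 3 at least 10 points lower. The 4 had medians of 34.2% in MCW and 42.4% in CRL, with 3 of them higher in CRL. Of 11 pan-leukocyte regions, 6 were at least 10 points lower in kidney, with medians of 15.4% in MCW and 11.1% in CRL, and 1 was higher. Of 24 kidney epithelium regions, 9 were at least 10 points lower in kidney, with medians of 13.9% in MCW and 10.4% in CRL, 5 of them lower in CRL, and 1 was higher. Of 28 endothelium and stroma regions 11 were lower, with medians of 9.86% and 14.2%, and 2 were higher. Of 7 myeloid and 10 B cell regions, 1 each was lower and 0 were higher. The part of cell composition in the colony difference was not tested.

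At the regions named for these promoters the colonies stood far apart on LS chow. The Gnas region at chr3:178440404-178440634 (rn5), of 19 CpGs, was methylated at 13.6% in MCW and 44.3% in CRL. At the Syk region, chr17:14758941-14758970, the levels were 47.2% in MCW and 75.9% in CRL. The Acbd4 region, chr10:90960935-90961097, had 31.4% in MCW and 5.98% in CRL. A second Acbd4 region, intragenic at chr10:90961770-90961882, was called the other way on LS chow, with 15.5% and 32.3%, and lower in CRL on HS chow, with 47.8% and 32.3%. On HS chow, in other rats, the same directions were measured at the TSS regions: 23.3% and 33.7% at Gnas, 63.4% and 78.4% at Syk, and 60.2% and 19.9% at Acbd4, MCW first. In blood on LS chow, Gnas was again lower in MCW than in CRL, at 23.1% and 37.8%, but in blood on HS chow the levels were 43.0% and 40.9%. Syk, at 7.01% and 9.41% in blood, and Acbd4, at 94.5% and 95.3%, were close together there. The authors' deposited table gives adjusted p = 1.34e-11 for Gnas, 0.000182 for Syk and 0.000314 for Acbd4 in kidney on LS chow. Each LS group also stands in a comparison of LS with HS chow, whose regions were drawn separately. With the levels that overlapping regions have there, called salt-table levels below, the LS difference was 25.6 points at Gnas, 23.8 at Syk and -14.7 at Acbd4.

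Regions count as called if they pass 0.05 on the authors' adjusted Mann-Whitney p and differ by 10 percentage points or more. By this rule 632 regions were higher in CRL, 1.65% of those tested, and 195 were lower, 0.510%. Called regions were thus mostly higher in CRL, at 76.4%. The regions called higher had a median level of 40.3% in MCW and 60.3% in CRL, and a median difference of 15.1 points. Those called lower had 30.5% in MCW and 16.0% in CRL, with a median difference of 13.4 points in size. Over all regions the mean level was 16.1% in MCW and 16.8% in CRL, and the median difference was 0 points. A total of 8784 genes had a region, of which 230 had one called higher, 109 one called lower and 10 both.

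The direction of the balance turned with the minimum difference required. Both groups were under 1% at 50.3% of the regions. Of the 18286 regions with an adjusted p under 0.05 in the authors' deposited table, 77.4% differed by under 1 point. With no minimum difference 6007 regions were higher in CRL and 6462 lower. A minimum of 1 point left 1552 and 2577, of 5 points 1041 and 541, and of 20 points 147 and 23. Regions lower in CRL were thus the more numerous at a minimum of 0 or 1 points, and higher ones from 5 points up. The plot of calls by minimum difference shows this. Each count takes in all differences above its minimum. The authors' separate q-value under 0.05, with the same minimum of 10 points, left 16 regions higher and 5 lower.

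**Figure D1:**
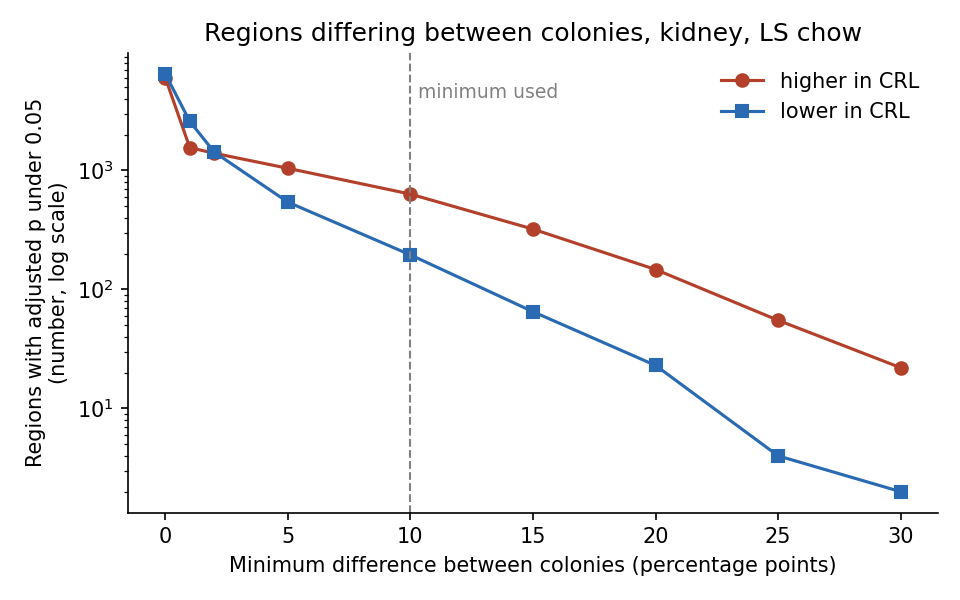
Number of regions (vertical axis, log scale) with an adjusted p under 0.05 against the minimum difference required in percentage points, for regions higher (circles) and lower (squares) in CRL kidney on LS chow. The lower regions are more numerous at 0 and 1 points, and the higher ones outnumber them 632 to 195 at the 10 points used (dashed line).

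By annotation, TSS regions were rarely called, and 74.9% of them were under 1% in both groups. The 18067 TSS regions had mean levels of 2.40% in MCW and 2.50% in CRL, and 81 were called higher and 24 lower. Among 5481 intragenic regions, with mean levels of 33.3% and 34.6%, 188 were called higher and 86 lower. The 14679 intergenic regions, with mean levels of 26.6% and 27.8%, gave 363 and 85. Where the mean level of the HS kidney groups was 40% or more, 24 of 212 TSS regions were called higher and 8 lower. Intragenic regions of such levels gave 84 and 28 of 1213, and intergenic ones 167 and 32 of 2531. From 10% to 40% the counts were 38 and 12 of 699 TSS, 49 and 41 of 993 intragenic and 79 and 37 of 1541 intergenic regions. Of the regions called higher 57.4% lay between genes, and of those called lower 44.1% lay within genes. By chromosome the called share ran from 1.10% on chromosome 11 to 3.57% on chromosome 14, which holds ribosomal DNA copies; without those it was 2.78%. Chromosome X had 13 called higher and 2 lower of 793.

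The largest differences between colonies with a gene were increases. Mbnl2, a splicing regulator, went from 7.51% in MCW to 49.4% in CRL at an intragenic region. Bpgm, which makes bisphosphoglycerate in red cells, had 21.1% and 58.8%, and the TSS region of Mrc2, an endocytic collagen receptor, had 13.7% and 49.3%. Other intragenic regions with differences over 30 points were those of Slc35e4 (25.1% and 59.9%), the glutamate transporter gene Slc1a1 (55.5% and 88.7%), Zc3hc1 (20.5% and 52.3%), Pced1b (49.5% and 80.7%) and Zfp316 (26.1% and 57.0%). With salt-table levels Slc1a1 differed by 6.52 points only, which ends its call. The TSS region of Plec, which encodes the cytoskeletal linker plectin, had 24.0% and 56.5%. These regions mostly held 5 to 7 CpGs, so that few sites carry each level. Zfp316 had 3 of its 6 regions called higher and Pif1, a DNA helicase gene, 3 of 4. Of all called regions, the largest difference was intergenic: chr8:4308931-4308953 had 26.0% in MCW and 71.4% in CRL, and 44.7% and 75.4% in blood on the same chow. In kidney on HS chow this region had 42.2% and 48.6% and was not called. In the authors' deposited table its adjusted p in kidney on LS chow was 7.3e-07.

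Decreases were smaller. The largest with a gene was at Tbxa2r, the thromboxane A2 receptor gene, with 43.4% and 16.0%, and a second region of that gene had 50.3% and 27.7%. Acbd4 came next, Zfp13 had 59.8% and 34.9%, Tspan5, a tetraspanin gene, 32.2% and 8.05%, and Rara, the retinoic acid receptor alpha gene, 28.3% and 6.97%. A second Rara region was also called lower, with 33.5% and 17.6%. Further decreases of over 20 points were measured at Nherf4 (51.4% and 29.9%), Fndc3b (55.0% and 34.0%), Tsen15 (53.7% and 32.8%), Mir326 (46.2% and 26.1%) and Bckdk (49.0% and 28.6%), the kinase that restrains breakdown of branched-chain amino acids. Between genes, a stretch on chromosome 1, chr1:151966554-151975075, had 5 of 11 regions called lower and 1 called higher. Its largest member, chr1:151975034-151975075, had 60.6% in MCW and 28.9% in CRL, and 78.5% and 50.6% on HS chow. The same stretch gave 5 regions called lower and 0 higher of 14 in kidney on HS chow, and 3 lower and 1 higher of 17 in blood on LS chow.

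Some called TSS regions held 10 or more CpGs and so rest on more sites. Higher in CRL, after Gnas, were Pcdhga12 of the clustered protocadherins (28.8% and 54.8%), Tescl (38.8% and 60.7%), the region shared by Get3 and Trir (24.2% and 43.2%) and Etaa1, a gene of the DNA replication stress response (23.7% and 42.6%). On HS chow all 4 of these had the higher level in MCW, with none called: 38.9% and 30.8% at Pcdhga12, 50.7% and 44.0% at Tescl, 44.9% and 38.3% at Get3 and Trir, and 43.6% and 35.2% at Etaa1. Lower in CRL were Mn1, a transcriptional regulator gene, with 25.4% and 10.7% over 18 CpGs, and Fzd5, Tapbp, Rgn and Plagl1. With salt-table levels the difference at Mn1 was -4.92 points, which ends its call. For Mn1 the levels were 32.2% and 23.2% on HS chow and 87.3% and 86.6% in blood on LS chow. All 5 of these had the lower level in CRL on HS chow too.

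The same colony contrast on HS chow shares no library with this one. There, 0.506% of 35347 regions were called higher in CRL and 5.13% lower, so that the balance lay on the other side. Of the regions called lower on LS chow, 160 overlapped a region tested on HS chow by at least 1 bp. Of these, 65 were also called lower (40.6%, where 6.67% of all 15863 shared regions were) and 0 higher. At any p, 0 of the 160 were 10 points or more higher. Those 65 were 6.14% of the shared regions called lower on HS chow. Levels at the 160 had medians of 42.6% in MCW and 29.8% in CRL on HS chow, against 29.6% and 14.6% on LS chow. All shared regions with a mean HS level of 20% to 40% had a median HS difference of -8.14 points (quartiles -12.5 and -4.10). Those at 40% to 60% had -6.03 points (quartiles -9.53 and -1.61). The background shares here and below take in regions of all levels, many too low to differ by 10 points. They were not matched for level. Among 446 regions called higher on LS chow, 64 were called higher (14.3%, where 1.00% of shared regions were) and 39 lower (8.74%) on HS chow. The median HS difference at these 446 was -1.87 points.

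Decreases shared by both chows were found at genes of many kinds. Tacc1, a coiled-coil gene of the centrosome, had 17.2% in MCW and 1.94% in CRL on LS chow and 47.2% and 18.4% on HS chow. Hm13, the signal peptide peptidase gene, had 31.7% and 15.2%, then 53.2% and 35.4%, but its neighbouring region was called higher on LS chow, at 47.2% and 61.3%, and lower on HS chow, at 66.1% and 56.0%. The TSS region of Fzd5, a Wnt receptor gene, had 27.9% and 13.3%, then 49.2% and 34.4%, while blood on LS chow had 88.7% and 95.6%. Tapbp, whose product loads MHC class I molecules, had 17.7% and 4.04% at its TSS region, then 38.8% and 19.9%. Bckdk had 54.4% and 35.4% on HS chow. Jak3, the kinase of common gamma chain cytokine receptors, had 35.9% and 23.7% on LS chow and 42.7% and 29.5% on HS chow over 18 CpGs. The X-linked gene Rgn had 16.6% and 5.18%, then 19.2% and 6.89%, at a TSS region of 12 CpGs. At each of these genes both levels were higher on HS than on LS chow, and the CRL level was the lower on each at the regions given first. With salt-table levels the LS difference was -9.06 points at Tapbp and -7.68 at Fzd5, under the 10 points of a call.

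Outside ribosomal DNA, the named increases shared by both chows started from MCW levels between 9.48% and 59.7%. The leukocyte tetraspanin gene Cd37 had 42.7% in MCW and 65.7% in CRL at its TSS region on LS chow and 37.8% and 55.6% on HS chow. Crip1, a LIM protein gene, had 27.9% and 50.5%, then 33.8% and 48.1%, and in blood on LS chow 0.128% and 1.57%. Sema4f, a semaphorin gene, had 48.5% and 71.8%, then 50.8% and 65.5%, against 4.42% and 2.74% in blood. Rin3, an activator of Rab5, had 44.0% and 66.8%, then 47.1% and 58.5%. Ttc22, at a TSS region, was called higher in CRL in all 4 comparisons: 9.48% and 20.5% in kidney on LS chow, 28.2% and 39.0% on HS chow, 18.6% and 36.9% in blood on LS chow and 15.3% and 30.5% in blood on HS chow. Other regions with large increases on LS chow turned or closed up on HS chow. Plec had 43.2% in MCW and 29.8% in CRL there, a decrease that was called, Mbnl2 33.7% and 25.6%, and Zc3hc1 45.3% and 45.5%.

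**Figure D2:**
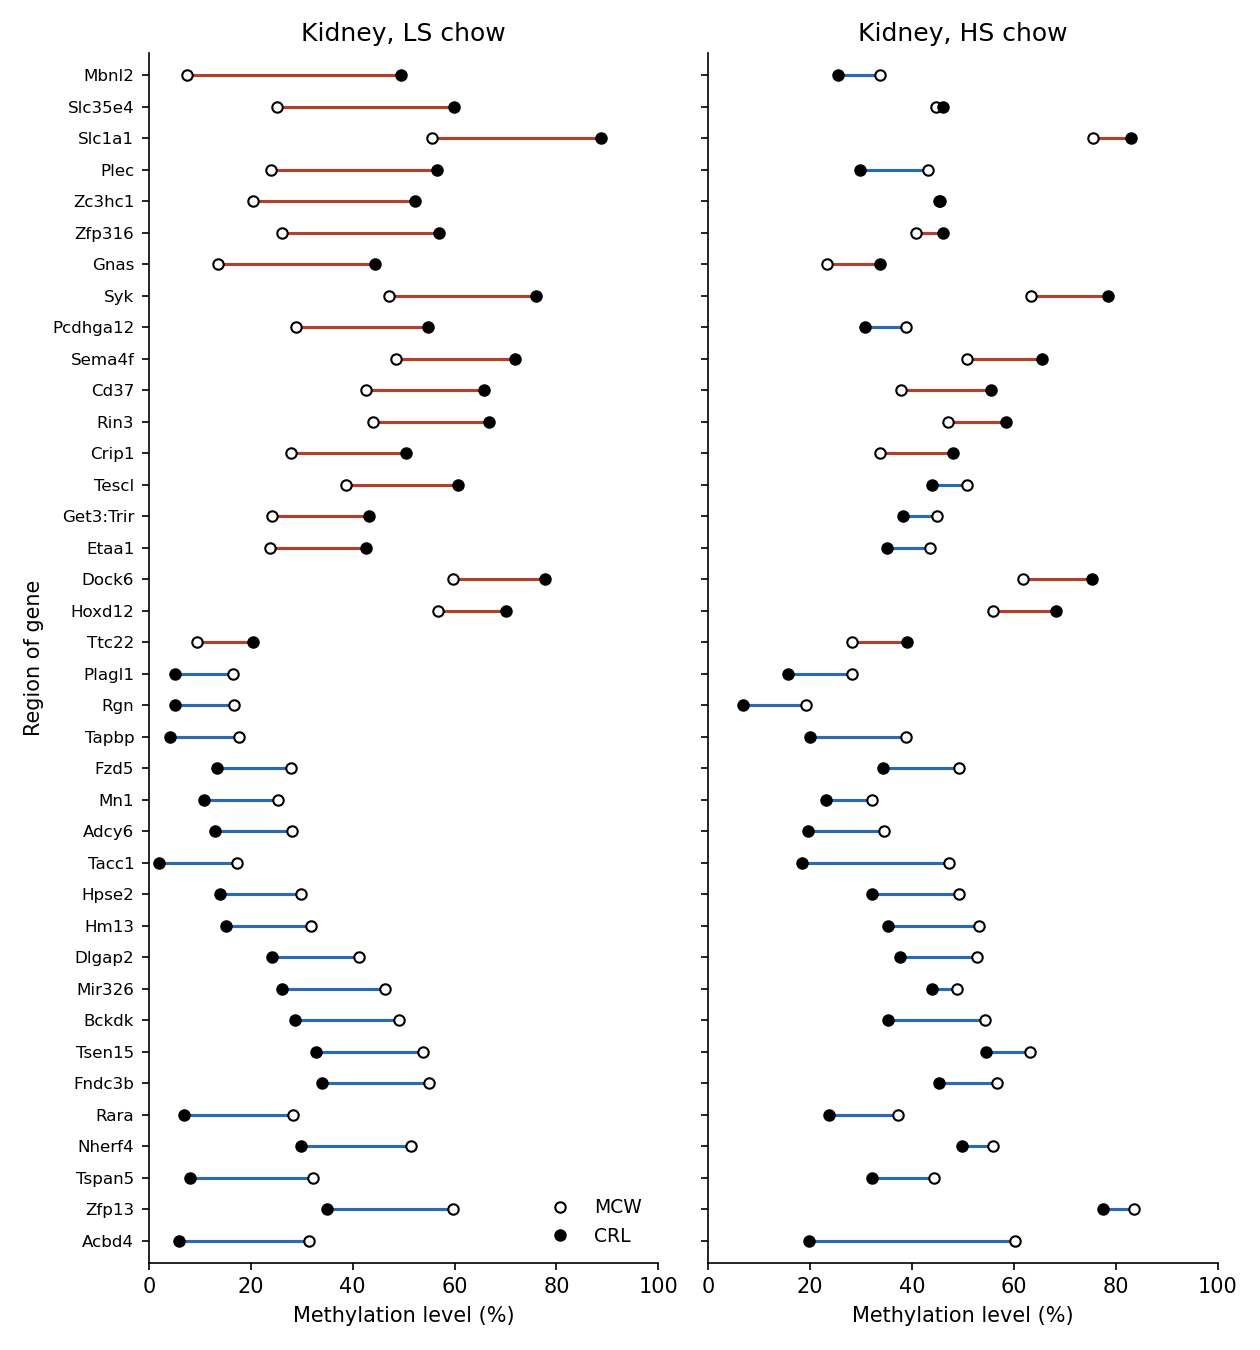
Methylation level in percent (horizontal axes) of MCW (open circles) and CRL (filled circles) in kidney on LS chow (left) and HS chow (right) at 38 regions of named genes, with lines red where CRL is higher and blue where it is lower. Of 11 decreases chosen on LS chow alone 11 kept their sign on HS chow, and of 11 such increases 5 did (over all shared regions 67.7% were lower and 25.1% higher in CRL on HS chow); the other 8 of each were chosen because both chows called them.

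Blood of the rats on LS chow, in other libraries, had 1.07% of 34559 regions called higher in CRL and 0.185% lower. Of the kidney regions called higher, 336 overlapped one tested in blood. Of these, 43 were called higher there (12.8%, where 1.93% of the shared regions were) and 2 lower (0.595%, background 0.223%). Those 43 were 16.6% of the shared regions called higher in blood. Without the ribosomal DNA regions described below, 19 of 292 were (6.51%, background 1.05%). Of 98 called lower in kidney, 2 were called lower in blood (2.04%, background 0.223%) and 3 higher (3.06%, background 1.93%). On HS chow, blood had 0.946% of 33620 regions called higher and 0.167% lower. There, 33 of 344 overlapping kidney increases were called higher (9.59%, background 1.78%), or 13 of 300 without ribosomal DNA (4.33%, background 0.835%). Outside Gnas and Ttc22, genes called higher in kidney and blood on LS chow included Tecta, at 44.6% and 63.8% in kidney and 46.6% and 60.4% in blood, and Nhlrc1, at 9.51% and 20.0% in kidney and 20.2% and 32.9% in blood. With salt-table levels Nhlrc1 differed by 3.74 points in kidney, which ends its call.

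Ribosomal DNA had a higher median level in CRL in all 4 comparisons of the colonies at 10 weeks. These repeats encode the RNA of the ribosome in many near-identical copies, part of which are silenced and methylated. The regions were taken as those annotated to Rn5-8s, Rn28s, Rn45s or Rn18s or within 50000 bp of one, on chromosomes 1, 5, 6 and 14. They were singled out after their values were seen. In kidney on LS chow they numbered 469, with a median level of 10.8% in MCW and 13.9% in CRL and a median difference of 3.06 points. Of them 86.6% were higher in CRL, against 43.7% of the other regions. In the blocks 45 were called higher (9.59%, where 1.55% of the other regions were), which is 7.12% of all increases. The blocks had 0 called lower, where 0.516% of the other regions were. With an unadjusted p under 0.05 and 10 points, 1 was lower, and by the q-value 0. The largest increase, at chr14:46823724-46823779, was from 25.9% to 50.3%. The median difference was 3.29 points over 457 regions in kidney on HS chow, 4.57 over 425 in blood on LS chow and 7.15 over 361 in blood on HS chow. There, 72, 90 and 99 regions were called higher (15.8%, 21.2% and 27.4%), where 0.307%, 0.817% and 0.658% of the other regions were. Called lower were 0, 2 and 0, where 5.19%, 0.182% and 0.168% of the other regions were. Near-identical copies are not independent: the 469 regions held 405 distinct pairs of levels, and the 45 calls 38. With the difference of the level columns 41 were called. Of 39 calls with salt-table levels, 19 remained called and 37 kept their sign. The median difference of the 39 went from 13.6 to 6.04 points, and the largest increase became 5.93 points. The overlapping regions can have other bounds. The same CRL salt-table level of 18.4% stood for chr14:46823525-46823718 and chr14:46823724-46823779. Over the 417 regions of the blocks with such levels the median was 3.30 points, against 3.00 here. Without these regions, 30 of 402 kidney increases on LS chow were also called higher on HS chow (7.46%, background 0.441%) and 39 lower (9.70%, background 6.87%). The regions left still take in a stretch before the chromosome 14 block, described at the end, that shares some values with the block.

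**Figure D3:**
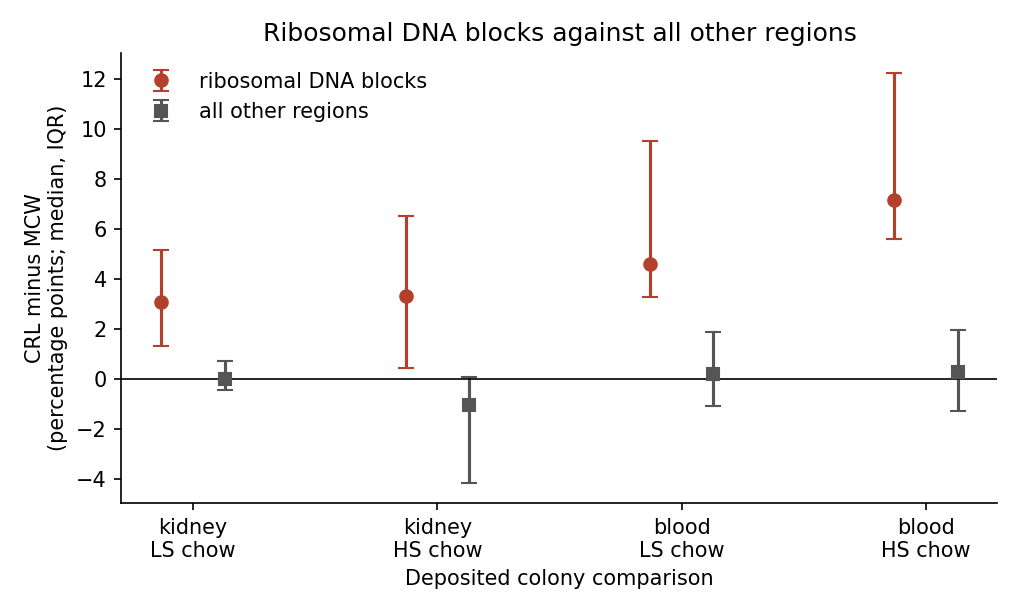
Difference between colonies (CRL minus MCW, percentage points; points are medians, bars the interquartile range over regions) in the ribosomal DNA blocks (circles) and all other regions (squares) of the 4 deposited colony comparisons at 10 weeks. The blocks have medians from 3.06 to 7.15 points, above the other regions in each comparison.

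Regions were next sorted by the mean level of both HS kidney groups, which took no part in the LS measurement. Between 1% and 40% the median LS difference was below 0: -0.83 points at 1% to 5%, -1.44 at 5% to 10%, -1.01 at 10% to 20% and -1.84 at 20% to 40%. From 40% to 60% it was 4.79 points, from 60% to 80% 4.07 and from 80% to 100% 3.12. Over all classes together, sparsely methylated regions were thus slightly lower in CRL and densely methylated ones higher, with wide interquartile ranges, such as -4.71 to 9.72 points at 40% to 60%. On HS chow the median difference was below 0 in each class, down to -8.14 points at 20% to 40%. Above 40% the LS medians were 4.11 points for TSS, 3.94 for intragenic and 3.97 for intergenic regions. From 10% to 40% they were -2.26 for intragenic and -1.45 for intergenic regions, but 0.94 for TSS regions.

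**Figure D4:**
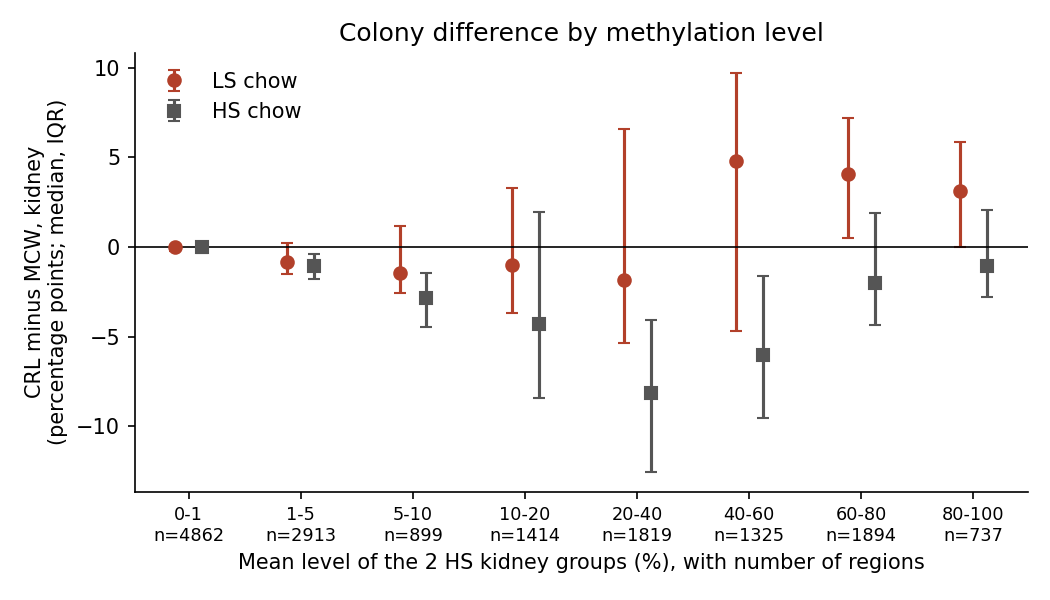
Difference between colonies in kidney (CRL minus MCW, percentage points; medians with interquartile range over regions) on LS chow (circles) and HS chow (squares) by the mean level of the HS kidney groups in percent, with the number of regions in each class. LS medians lie between -1.84 and 0 up to 40% and between 3.12 and 4.79 above it, while HS medians lie below 0; the HS groups also define the classes.

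The regions that set kidney apart from blood differed between colonies as well. They were classed by the comparisons of kidney with blood in HS rats of both colonies, which share no library with the LS contrast. At 548 regions called higher in kidney than in blood in both HS comparisons, the LS kidney level had a median of 31.4% in MCW and 40.0% in CRL. The median difference was 8.36 points, 79.9% were higher in CRL, and 114 were called higher and 5 lower. At 4027 regions called lower in kidney in both, the median difference was -1.44 points, with 171 called higher and 135 lower. At 8963 regions called in neither it was -0.05 points, with 129 and 11. Of the kidney-high regions with a mean HS kidney level of 40% to 60%, 92.6% of 176 were higher in CRL, with a median of 10.8 points. At the same level, regions called in neither were higher in CRL at 69.4% of 245 and kidney-low ones at 57.7% of 950, with a median of 3.29 points. In bulk libraries a change in the share of a cell type and a change of the level within its cells cannot be told apart.

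**Figure D5:**
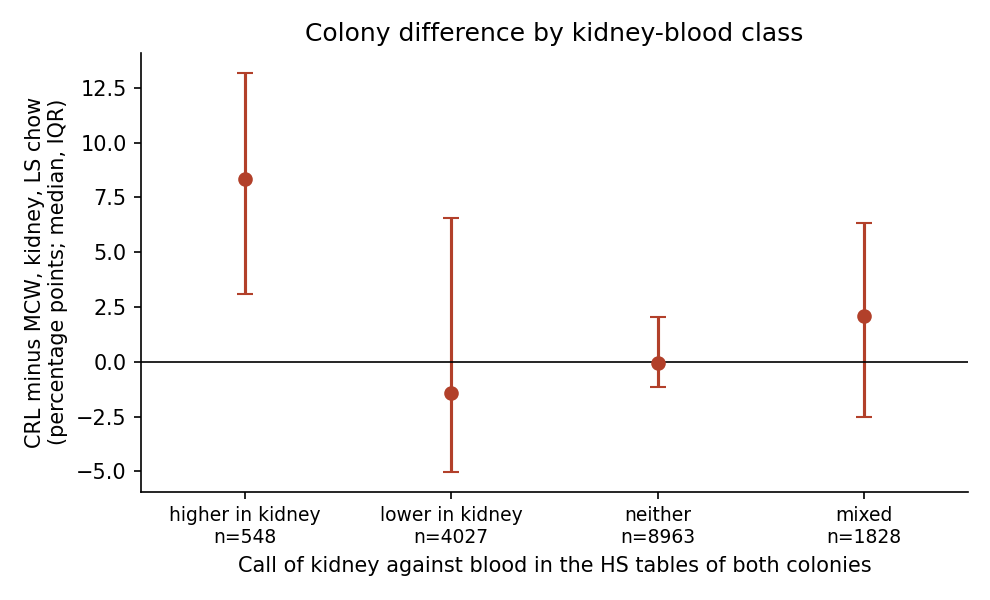
Difference between colonies in kidney on LS chow (CRL minus MCW, percentage points; medians with interquartile range over regions) for regions called higher or lower in kidney than blood in both HS comparisons, in neither, or in 1 or opposite ways (mixed). The 548 kidney-high regions have a median of 8.36 points and the other classes lie between -1.44 and 2.08.

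Gene lists are given by their genes with a called region, beside 2.62% higher and 1.24% lower of all genes with a region. These shares were matched neither for level nor for the number of regions a gene has. Regions of all genes had a median MCW level of 0.184%, and 11.3% of them differed by 5 points or more. The values were 23.8% and 43.2% in the T cell list, 5.3% and 23.7% in kidney epithelium and 11.1% and 36.0% in imprinted genes. Median differences were 0 points over all genes, 1.08 in the T cell list, -0.19 in kidney epithelium and 0 in imprinted genes. In the T cell list 1 of 14 genes was called higher (Lcp2) and 3 lower. The latter were Cd2, Skap1 and Zap70, the receptor-proximal kinase (24.5% and 14.1%; -6.95 points with salt-table levels, which ends its call). Of 15 pan-leukocyte genes Cd37 and the integrin gene Itgal, at 36.9% and 53.8%, were called higher and Jak3 lower. Of 23 kidney epithelium genes 4 were called higher: Pax2, a nephron transcription factor gene (21.0% and 50.8%), Wfdc2 (31.7% and 59.8%), Cldn10, a tight junction gene (21.1% and 47.8%), and Lrp2, the megalin gene (49.5% and 63.4%). Cubn, whose product acts with megalin, was called lower at 15.3% and 4.30%. At the Wfdc2 region and at the Pax2 region with an HS value the colonies stood close on HS chow, with 27.9% and 23.9% and with 18.2% and 14.9%. Robo4, an endothelial receptor gene, was the only one of 18 endothelium and stroma genes called, higher, at 2 places on chromosome 8 with nearly equal values (19.7% and 42.1%, 20.0% and 42.3%), and whether these are copies of 1 sequence was not tested.

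Imprinted genes are methylated on the chromosome of 1 parent. Of 30 in the table, Gnas, Igf2r, Ndn and Zrsr1 were called higher (13.3%, where 2.62% of all genes were). Plagl1 was called lower (3.33%, where 1.24% of all genes were). At their TSS regions Igf2r (12.3% and 30.9%) and Zrsr1 (37.0% and 54.0%) rose, and Ndn rose from 10.6% in MCW by 19.4 points in the authors' deposited table. With salt-table levels Igf2r differed by 7.71 points, which ends its call. Of its 11 regions on LS chow 9 were lower in CRL, and the median difference was -2.48 points. On HS chow Zrsr1 had 43.5% and 37.3%. Igf2r had 26.3% in MCW and 27.5% in CRL, while the difference column of the authors' deposited table gives -4.91 points for that region, so that no direction is read there. Plagl1 fell from 16.5% to 5.16% over 20 CpGs, and had 28.2% and 15.7% on HS chow, a decrease that was called. Gnas had 5 of 21 regions called higher and 0 lower. In the stretch chr3:178438668-178441301, 4 of 5 were called, with differences from 11.6 to 30.8 points. On HS chow 1 of 7 regions of that stretch was called higher, and the median difference was -3.81 points. The other Gnas regions on LS chow, one of them called at 20.4% and 37.7%, reached down to -8.59 points.

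Of 60 homeobox genes, which pattern the body axis and organs, 5 were called higher (8.33%, where 2.62% of all genes were). The 0 called lower is near the 1.24% of all genes. The largest decrease of the list was -9.42 points, under the minimum of a call. At an unadjusted p under 0.05 and 10 points the list had 8 regions, all higher in CRL, and by the q-value 1, also higher. Its 293 regions had a median difference of -0.48 points, against 0 over the regions of all genes. By region, 6 of the 293 were called higher, against 278 of 25231 over all genes. The median MCW level was 1.91% in the list and 0.184% over all genes. The share of genes was matched neither for level nor for the number of regions a gene has. Besides Pax2 the genes called higher were Hoxc10 (19.1% and 47.5%), Hoxb5 (20.2% and 34.0%), Hoxd12 (56.7% and 70.1%) and Hoxd3 (43.5% and 53.8%). Hoxd12 had 56.0% and 68.4% on HS chow, whereas Hoxb5 had 36.9% and 26.8%, a called decrease. Among 24 salt, renin-angiotensin and oxidant genes 1 was called higher and 1 lower (4.17% each), near the 2.62% and 1.24% of all genes. Stk39, the gene of the SPAK kinase that activates renal salt transporters, was called higher at 23.3% and 36.3%. Slc9a3, the sodium-hydrogen exchanger gene of the proximal tubule, was called lower at 28.2% and 15.4%. Of 12 innate genes, Irf8 and Nfkb1, which encode transcription factors of immune cells, were called lower (16.7%, where 1.24% of all genes were). In the authors' deposited table Irf8 was 14.9 points below an MCW level of 39.9%, and Nfkb1 fell by 11.3 points to 13.7% in CRL. Klf2, which keeps T cells quiescent, was the only one of 10 activation and trafficking genes called, at 15.6% and 31.0%. That is 10% called higher, where 2.62% of all genes were, and in lists this short each gene moves the share by much. With salt-table levels the difference was 0.34 points at Klf2, 2.72 at Stk39, -9.43 at Slc9a3 and -9.45 at Nfkb1, which ends each of these calls.

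No gene was called among 13 of the DNA methylation machinery, 11 helper lineage and cytokine genes, 14 of one-carbon metabolism, 7 of xenobiotic response, 6 myeloid and 9 B cell genes. With an unadjusted Mann-Whitney p under 0.05 and 10 points, these lists had 0 regions, except 1 in the myeloid list, and with the q-value 0. Of all genes 2.62% were called higher and 1.24% lower, so that 0 in lists this short is near those shares. Median MCW levels were 0.029% in the machinery list, 0.044% in one-carbon metabolism and 0.137% in the helper list. From such levels no region can fall by 10 points. No natural killer gene had a region. Dnmt1, the maintenance methyltransferase gene, had 82.8% in MCW and 85.3% in CRL, and Dnmt3a, a de novo methyltransferase gene, 15.7% and 11.2% at a TSS region, the largest decrease of its list. The 4 Dnmt3b regions were all below 1%. Cd8a, the CD8 coreceptor gene, had 13.6% and 23.5% at a TSS region of 9 CpGs, with adjusted p = 0.302 in the authors' deposited table, and 3.34% and 6.57% at the next one.

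The salt-table levels come from the same libraries and are no independent measurement. At equal coordinates and levels over 20%, 90.9% of 2332 MCW levels and 85.1% of 2426 CRL levels lay within 1 point of those used here, and CRL levels differed by up to 12.9 points. At 536 called regions with an overlapping region in both salt comparisons, the difference kept its sign at 95.7%. Its median at the 392 increases was 14.0 points there and 15.4 here. The second Rara region turned to 3.67 points, with the same MCW salt-table level of 17.5% standing for both Rara regions. Where bounds differ, a call that ends may reflect another stretch of DNA, and which applies was not tested.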

How the data were processed

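Reduced representation bisulfite libraries of 4 pools a group were compared in the deposited table of MCW against CRL kidney on LS chow; 8 further tables of the 15 were read for comparison. Per the file headers, each row holds a region of at least 5 CpGs with the methylation level of each group, which the authors give as a fraction (percent here), their difference, and p-value columns (Mann-Whitney, the same adjusted, and a separate q-value). The authors' p-values reach 1.92e-12, whereas 0.0286 is the smallest p of an exact rank test over 4 and 4 pools, so that sites of 1 pool were treated as independent. The adjusted form equalled the Benjamini-Hochberg adjustment over the table. Values per pool, counts and depths are not in these columns, so that no model was fitted and no interval is given; whether pools were separate batches is not stated. Per-sample columns left unused number 0. Positions are on rn5, per the submitters' processing notes. Aligner and caller: not given in the sources used here. Whether starts count from 0 or 1 is not stated. The authors' difference departed from that of the levels by over 0.2 points in 3.24% of regions.

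Scripts in Python 3.11.15 (pandas 2.3.3, numpy 2.4.6) took differences as CRL minus MCW and joined tables by the largest overlap of at least 1 bp. They were tested on simulated data. Gene symbols were updated with the RefSeq table of GRCr8 (of 8784, 8247 were current and 426 matched 1 synonym). The comparison, the 16 gene lists and the naming rule were chosen with earlier results of these data known. The rule named the largest differences with and without a gene, genes with most called regions, list members, genes called alike on HS chow or in blood, TSS regions of 10 or more CpGs, and the methyltransferase and main T cell genes. Alternatives varied the minimum difference, the p or q limit, the number of CpGs, the source of the levels and the overlap.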

Additional observations from a re-analysis of the deposited data

How the results depend on the processing

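No paired analysis was possible because the tables hold group means and no value per pool; for the same reason leaving out each pool was not run. The call rests on 632 regions higher and 195 lower. Higher and lower counts were 6007 and 6462 with no minimum difference (48.2% higher, the direction turned), 1041 and 541 at 5 points (65.8%), 147 and 23 at 20 points (86.5%), 355 and 102 at adjusted p under 0.01, 16 and 5 by the q-value, and 74 and 20 with at least 10 CpGs. Where the levels lay within 1 point of the salt comparisons they were 52 and 33 (61.2%), and with levels from those comparisons 330 higher; 392 increases had a region there (an alternative chosen after seeing the data). With differences of the level columns, on autosomes, or without ribosomal DNA (also added), both counts stayed within 1.5 times. Regions called higher on both chows fell from 64 to 35 at a reciprocal overlap of 50%, to 2 at 20 points and to 30 without ribosomal DNA; those called lower on both fell from 65 to 2 at 20 points. Kidney and blood on LS chow shared 21 increases and 0 decreases at 50% overlap, against 43 and 2. The 45 ribosomal increases became 99 at 5 points, 7 at 20 points, 7 by the q-value and 19 with salt-table levels. Of the named called regions, 87 remained called at adjusted p under 0.01, 52 at 20 points, 8 by the q-value and 110 with level differences. With levels from the salt comparisons 60 did and 28 did not; 1, at Rara, turned to 3.67 points. The cause of these changes was not tested. Depth is unknown, and 409 of the 632 increases and 140 of the 195 decreases rest on 5 CpGs.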

Other observations

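Some stretches without a gene carried several calls and were followed through the other comparisons. At chr14:46694274-46703212, before the ribosomal DNA block of that chromosome and outside the limit used for it, 32 regions had a median of 13.6% in MCW and 15.8% in CRL kidney on LS chow, with 4 called higher and 0 lower. Its medians were 13.9% and 17.7% in kidney on HS chow, 20.0% and 22.8% in blood on LS chow and 20.6% and 27.5% in blood on HS chow. Its highest CRL kidney level on LS chow, 58.3%, and its largest kidney difference on HS chow, 20.6 points, equal those of an Rn45s region in the block. Whether this stretch holds ribosomal DNA copies was not tested, and the counts without ribosomal DNA still take it in. At chr15:9215003-9215439, 3 regions were called higher in kidney on LS chow, with medians of 35.3% and 54.9%; on HS chow they were 43.4% and 48.5%, with 0 called. At chr6:38852800-38854348, 4 regions were called higher and 1 lower on LS chow, and 4 and 0 on HS chow, where medians were 21.3% and 33.1%. At chr12:356009-356084 the level was 15.6% in MCW and 58.1% in CRL kidney on LS chow, and 44.3% and 27.6% in blood on HS chow, a called difference the other way.

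By the q-value, gene regions left as higher included those of Brsk1, a neuronal kinase gene, at 49.3% and 70.9%, and Rasal3, a Ras GTPase activating protein gene, at 7.00% and 31.3%. Rasal3 had 19.1% and 8.68% on HS chow, a called decrease. Regions left as lower were at Trappc6a, a vesicle tethering gene (17.4% and 6.52%), Mn1 (25.4% and 10.7%), Agap3 (13.7% and 3.49%) and Amn, whose product anchors cubilin (22.4% and 8.61%). Amn also had 3 regions called higher. These genes were chosen after their values were seen, except Mn1 and Amn.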
